A study of Mus musculus with 6 samples.

Results

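A set of 8 genes that decide between survival and death of a cell were followed in primary murine hepatocytes overexpressing Aloxe3: the death receptor gene Fas, Casp8 and Cflar at the receptor complex, the kinases Ripk1 and Ripk3, and the BCL2 family genes Bid, Bcl2l1 and Mcl1. They were taken as a given list of regulators of apoptosis and necroptosis, and all 8 were found among the 41388 Ensembl genes of the RPKM table. The cells were C57BL/6J hepatocytes, the parenchymal cells of the liver, isolated by collagenase digestion and kept in growth medium overnight. They then received adenovirus, at about 1000000 viral particles per 1000000 cells, and RNA was collected after 24 h. In the β-gal group the virus encoded beta galactosidase, the control protein, and in the other it encoded ALOXE3 (eLOX3), an epidermal-type lipoxygenase that in the study stood for part of the fasting response of the liver. Both groups therefore carried virus, and no cells without virus were compared here. The groups held 3 libraries each, β-gal replicates 1, 2 and 3 and Aloxe3 replicates 7, 8 and 9. The labels do not say whether these came from separate cultures or animals, so p-values measure the spread between these samples, which may be technical. As a check of the labels, Aloxe3 was at 2.04, 2.06 and 1.74 RPKM in the β-gal libraries and at 42.3, 45.8 and 56.3 RPKM in the Aloxe3 libraries.

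Apoptosis can start at the cell surface, where a ligand on Fas or on a TNF receptor gathers the adaptor FADD and procaspase-8. The protein encoded by Cflar, c-FLIP, resembles caspase-8 but lacks its protease activity, and it sets whether caspase-8 becomes fully active. In hepatocytes the signal usually has to pass through mitochondria: caspase-8 cleaves BID, which activates the pore formers BAX and BAK, while BCL-XL (Bcl2l1) and MCL1 hold them back. Mice that lack either survival protein in hepatocytes show spontaneous liver cell death. Where caspase-8 is blocked, RIPK1 and RIPK3 can instead drive necroptosis through the membrane-disrupting protein MLKL, and RIPK3 is known to be scarce in healthy hepatocytes.

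The survival genes were by far the most abundant of the 8. Levels are given as RPKM, reads per kilobase of gene and per 1000000 reads of the library, a scale per length on which genes can be compared. Bcl2l1 had a mean of 82.8 RPKM over all 6 libraries and Mcl1 of 61.2 RPKM, which placed them at percentiles 95.4 and 93.3 of the levels of all tested genes. Cflar (19.0 RPKM) and Bid (17.6 RPKM) came next, followed by Casp8 (10.9 RPKM) and Ripk1 (9.79 RPKM). Ripk3 (2.34 RPKM) and Fas (2.15 RPKM) were the lowest, at percentiles 26.9 and 25.5. In this order the ranges of neighbors over the 6 libraries did not overlap, except those of Ripk3 (1.91 to 2.52 RPKM) and Fas (1.75 to 2.43 RPKM), which could not be ranked. The narrowest of the other steps lay between Casp8, with a lowest value of 10.2 RPKM, and Ripk1, with a highest value of 10.1 RPKM. The RPKM level of a gene depends on the length assigned to it, and for Cflar that length was 12669 bases of exon, the longest among the 8.

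**Figure D1:**
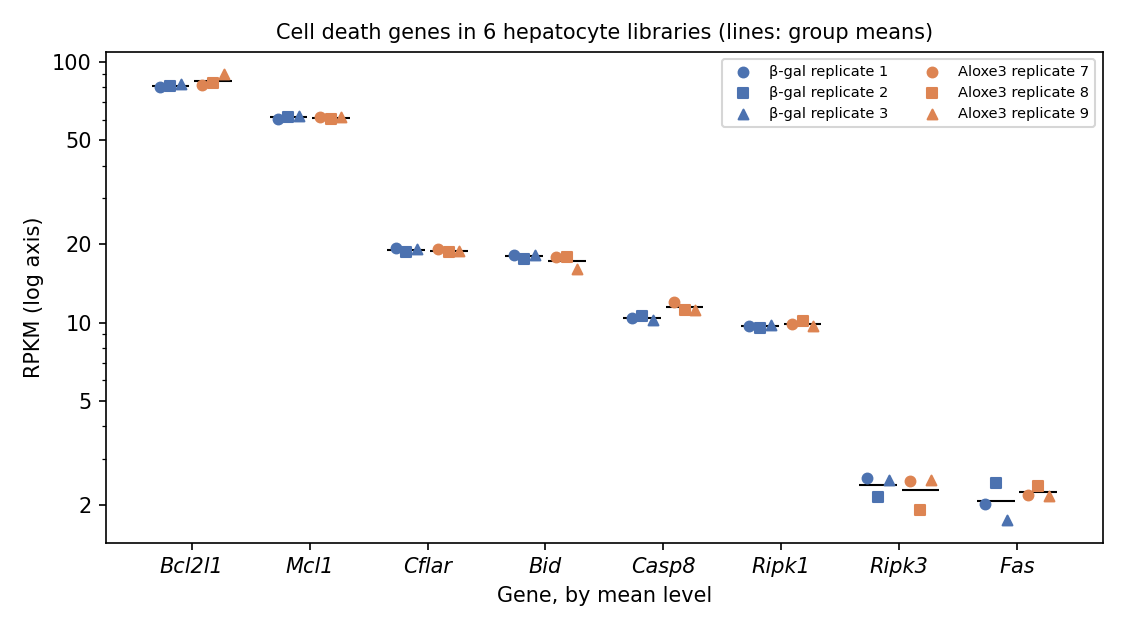
RPKM (log axis) of the 8 genes in each library, ordered by mean level. Blue marks are β-gal replicates 1, 2 and 3, orange marks Aloxe3 replicates 7, 8 and 9, and black lines the group means. The level falls from 82.8 RPKM for Bcl2l1 to 2.15 RPKM for Fas, and the groups stand apart only for Casp8.

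None of the 8 genes passed the test between hepatocytes overexpressing Aloxe3 and those expressing β-gal. Values were compared as log2(RPKM + 1) in one fit across all genes (limma, adjusted by Benjamini-Hochberg). All 8 were above the minimum mean of 0.5 RPKM and thus among the 12693 genes tested, of which 50 (0.394%) had an adjusted p under 0.05. The adjusted p of the 8 ranged from 0.291 to 0.947, so 0 of 8 were past the threshold. Before adjustment, 1 of the 8 (Casp8) had a p under 0.05, as against 12.7% of all tested genes. With voom in limma, run on the whole reads that can be derived from the RPKM values, 0 of the 8 passed as well, while 1.36% of all tested genes did. The median log2 fold change of the 8 was 0.01, and that of all tested genes 0.0049. The median size of the change, regardless of direction, was 0.05 for the 8 and 0.06 for all tested genes.

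Casp8, which encodes the initiator caspase of the receptor pathway, was the only member whose groups did not overlap. It had 10.4, 10.6 and 10.2 RPKM in the β-gal libraries and 11.9, 11.2 and 11.2 RPKM in the Aloxe3 libraries. Every Aloxe3 library lay above every β-gal library, as it did in either direction for 19.9% of all tested genes. The group means were 10.4 ± 0.17 RPKM (SD, n = 3) and 11.4 ± 0.45 RPKM (SD, n = 3), a difference of 10.2% of the β-gal mean. The log2 fold change was 0.13 (SE 0.041, 95% interval 0.03 to 0.22) with an unadjusted p of 0.0148 and an adjusted p of 0.291 from limma. Leaving out β-gal replicate 3 gave an unadjusted p of 0.0541, and leaving out Aloxe3 replicate 7 gave 0.0523. These values rest on 853 to 990 reads per library.

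Cflar, which encodes c-FLIP, lies next to Casp8, but its values did not separate the groups. It had 19.3, 18.7 and 19.2 RPKM in β-gal libraries and 19.1, 18.6 and 18.9 RPKM in Aloxe3 libraries, so that the groups overlapped. The log2 fold change was -0.01 (SE 0.034), with a 95% interval from -0.09 to 0.06 and an adjusted p of 0.904 from limma. At 6167 to 7869 reads per library, this was among the more closely measured of the 8 genes. On chromosome 1 of GRCm38, Cflar (ENSMUSG00000026031, 58711508 to 58758884) and Casp8 (ENSMUSG00000026029, 58795374 to 58847503) lie on the forward strand with 36489 bases and 0 other protein-coding genes between them.

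Casp8 has its RefSeq start inside the GENCODE span given above. The sequences before the RefSeq starts of these neighbors (GRCm38.p6, forward strand) are shown because Casp8 was the only member whose groups stood apart and Cflar is the gene beside it. Each line gives the 250 bases before the start, chr1:58802252-58802501 for Casp8 and chr1:58711241-58711490 for Cflar, 5′ to 3′. Capitals mark the short motifs searched on both strands: CCAAT (the CCAAT box), GGGCGG (the GC box) and TATAAA (the TATA box).
Casp8: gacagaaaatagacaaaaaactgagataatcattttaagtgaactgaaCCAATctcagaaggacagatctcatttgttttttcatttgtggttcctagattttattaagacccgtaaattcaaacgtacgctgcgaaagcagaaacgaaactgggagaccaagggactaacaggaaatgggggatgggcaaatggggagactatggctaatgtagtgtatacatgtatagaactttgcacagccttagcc
Cflar: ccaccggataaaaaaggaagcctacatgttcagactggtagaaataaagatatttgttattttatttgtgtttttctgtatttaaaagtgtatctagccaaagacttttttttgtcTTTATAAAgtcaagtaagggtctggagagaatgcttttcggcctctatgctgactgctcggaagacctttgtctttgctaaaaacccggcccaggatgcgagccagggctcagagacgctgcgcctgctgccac
Casp8 held 1 CCAAT box, which begins 202 bases before the start, and Cflar held a TATA box on each strand, overlapping each other and beginning 134 and 132 bases before it. Of 32841 promoters of the same length in the reference table, 33.9% held a CCAAT box, 12.4% a TATA box and 32.7% a GC box. Casp8 and Cflar had the lowest GC content among the 11 promoters listed for the 8 genes, at 39.6% and 42.8% with 5 and 7 CpG dinucleotides, against a median of 52.4% and 6 over all promoters. The promoters of Mcl1 (64.4% GC, 26 CpG), Bid (63.6% GC, 18 CpG) and Ripk1 (60.8% and 69.6% GC at its 2 listed starts) were rich in both. A GC box was found before a start of 5 of the 8 genes, Fas, Ripk1, Ripk3, Bid and Mcl1. These matches describe letters and were not tested as binding sites.

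Fas and its partners at the receptor showed no difference past the threshold. Fas had 2.01, 2.43 and 1.75 RPKM in β-gal libraries and 2.18, 2.36 and 2.16 RPKM in Aloxe3 libraries, and the β-gal libraries spanned the whole range of the Aloxe3 libraries. Its log2 fold change came to 0.08 (0.084 SE, limma adjusted p = 0.722). With 93 to 142 reads per library its 95% interval was wide, from -0.11 to 0.28. Without β-gal replicate 2, the highest library, the log2 fold change was 0.17, and without replicate 3, the lowest, it was 0.0068. Fas (ENSMUSG00000024778) lies on chromosome 19 (34290666 to 34327772).

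Ripk1, the kinase that stands between survival signaling and necroptosis, had 9.70, 9.51 and 9.82 RPKM in β-gal libraries and 9.89, 10.1 and 9.73 RPKM in Aloxe3 libraries. The groups overlapped, with a log2 fold change of 0.03 (0.036 SE, 95% interval -0.05 to 0.12, limma adjusted p = 0.77). On chromosome 13 (34002363 to 34037147) Ripk1 (ENSMUSG00000021408) shares 241 exon bases with Serpinb6a on the opposite strand, which was at a mean of 50.4 RPKM. It also shares 511 exon bases with a processed pseudogene on its own strand. Only unambiguous reads were counted, so reads that fit both genes were left out rather than mixed in. The counting is not stated to have used strand, so how many reads Ripk1 lost in this way is not known.

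Ripk3, the kinase that phosphorylates MLKL, was present in every library at a low level. It had 2.52, 2.14 and 2.50 RPKM in β-gal libraries and 2.47, 1.91 and 2.49 RPKM in Aloxe3 libraries, from 114 to 160 reads per library. In both groups 1 library, β-gal replicate 2 and Aloxe3 replicate 8, lay below the others. This gave a log2 fold change of -0.04 (0.087 SE, 95% interval -0.25 to 0.16, limma adjusted p = 0.868), and it turned to 0.04 without Aloxe3 replicate 8. Ripk3 (ENSMUSG00000022221) lies on chromosome 14 (55784995 to 55788865).

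Whether these low values stem from hepatocytes or from other liver cells cannot be told from bulk RNA, in which fewer cells of a type and less RNA per cell look alike. Of 9 hepatocyte markers 8 passed the minimum, and the list summed to 5045 to 5075 RPKM in the β-gal libraries and 4874 to 5038 RPKM in the Aloxe3 libraries. Albumin (Alb) made up most of it, with group means of 4524 and 4445 RPKM and groups that overlapped. The 8 tested markers were not of 1 direction, with 4 positive and 4 negative log2 fold changes. Apoa1 was lower in every Aloxe3 library (243 and 227 RPKM as group means, unadjusted p = 0.0338, limma adjusted p = 0.349). The groups overlapped for Apob (243 and 245 RPKM as β-gal and Aloxe3 means), Hnf4a (26.9 and 27.6 RPKM), Ass1 (12.4 and 11.8 RPKM) and Fabp1 (4.56 and 4.24 RPKM). Cyp3a11 and Cps1, genes of mature hepatocytes, were low at 0.61 and 0.99 RPKM in the β-gal group, and 0.69 and 1.496 RPKM in the Aloxe3 group. Cps1 was higher in every Aloxe3 library (unadjusted p = 0.0022, limma adjusted p = 0.161), as was Tat, which was below the minimum with 15 to 42 reads per library and group means of 0.28 and 0.58 RPKM. Of the 4 cholangiocyte markers, Krt19 and Sox9 were at 42.9 and 41.5 RPKM in the β-gal group, while Krt7 (0.13 RPKM) and Epcam (0.43 RPKM) were below the minimum. Epcam, with 8 to 30 reads per library, was lower in every Aloxe3 library, at a mean of 0.26 RPKM. Of the 10 listed markers of Kupffer cells and macrophages, 6 passed the minimum, and their summed level was 159 to 164 RPKM in the β-gal libraries and 140 to 154 RPKM in the Aloxe3 libraries. Nearly all of it was Cd68 (148 and 133 RPKM as group means), which was lower in every Aloxe3 library (log2 fold change -0.15, unadjusted p = 0.0094, limma adjusted p = 0.262). By contrast, Lyz2 had 7.96 and 7.48 RPKM, Adgre1, Csf1r, Marco and Cd5l had group means of 0.55 to 1.67 RPKM, and Clec4f, Vsig4, Timd4 and Ptprc were below the minimum. The 8 endothelial markers summed to 32.8 to 37.6 and 32.5 to 37.0 RPKM, the 6 stellate and fibroblast markers to 3.39 to 3.94 and 3.54 to 3.86 RPKM with Lrat at 0 in every library, and the 4 cholangiocyte markers to 78.3 to 93.5 and 74.7 to 93.0 RPKM. The 6 lymphocyte and 4 neutrophil markers, with Nkg7 and Mpo at 0 in every library, summed to at most 0.131 and 0.277 RPKM in any library. No marker passed the threshold. The summed levels of the hepatocyte and the macrophage lists were lower in every Aloxe3 library, while those of the other 5 lists overlapped between the groups. The nearest hepatocyte sums were 5045 and 5038 RPKM, and the macrophage sum follows Cd68, so neither speaks for its list as a whole. The groups did not overlap for 2 of 8 tested hepatocyte markers and 1 of 6 tested macrophage markers, beside 19.9% of all tested genes. The part of these cell types in the values of the 8 genes was not tested.

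Bid, which encodes the BH3-only protein cut by caspase-8, had 18.2, 17.5 and 18.2 RPKM in β-gal libraries and 17.8, 17.9 and 16.01 RPKM in Aloxe3 libraries. The groups overlapped, and Aloxe3 replicate 9 was the lowest library. The log2 fold change was -0.06 (0.049 SE, 95% interval -0.17 to 0.06, limma adjusted p = 0.656) and -0.01 without that replicate. Bid (ENSMUSG00000004446), on chromosome 6 (120891930 to 120916853), shares 628 exon bases with Bcl2l13 on the opposite strand, which was at a mean of 11.0 RPKM.

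Bcl2l1, which encodes BCL-XL, had 79.7, 80.6 and 82.1 RPKM in β-gal libraries and 81.2, 83.0 and 89.9 RPKM in Aloxe3 libraries. Here replicate 9 was the highest library, and the other Aloxe3 libraries lay within or just above the β-gal range. The log2 fold change was 0.07 (0.044 SE, 95% interval -0.04 to 0.17, limma adjusted p = 0.566), and 0.02 without replicate 9. Bcl2l1 (ENSMUSG00000007659) lies on chromosome 2 (152780668 to 152831728) and was counted with 9507 to 11990 reads per library.

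Mcl1, which encodes a short-lived survival protein, was the most even of the 8. It had 60.3, 61.6 and 62.0 RPKM in β-gal libraries and 61.4, 60.2 and 61.4 RPKM in Aloxe3 libraries. The coefficient of variation was 1.46% and 1.15% in the 2 groups, as against 16.7% and 4.83% for Fas. Its log2 fold change came to -0.007 (0.032 SE, 95% interval -0.08 to 0.07, limma adjusted p = 0.947), and it was positive, at 0.0222, with quantile normalization. Mcl1 (ENSMUSG00000038612) lies on chromosome 3 (95658788 to 95663176).

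**Figure D2:**
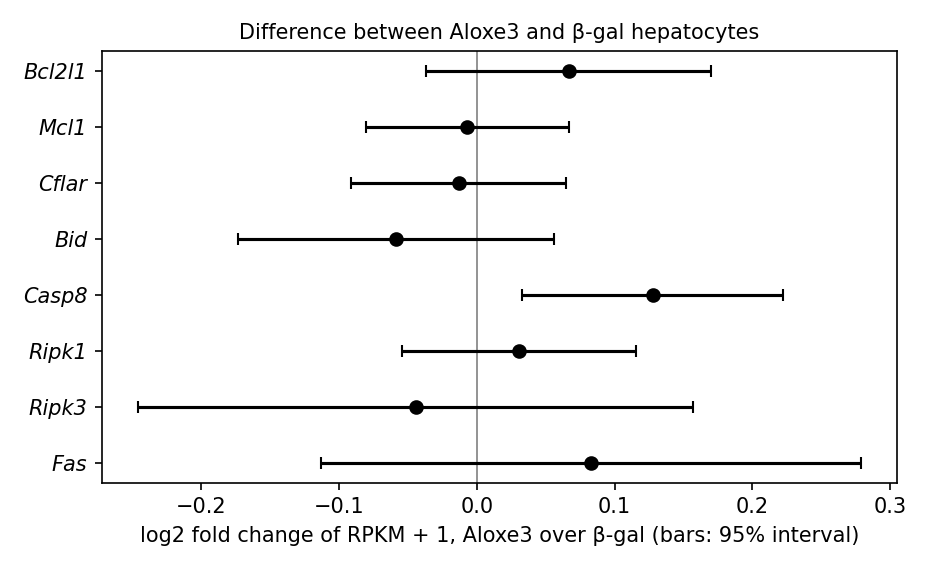
Log2 fold change of RPKM + 1, Aloxe3 over β-gal, for the 8 genes, with 95% intervals from limma (3 libraries per group). The interval leaves out 0 only for Casp8 (0.03 to 0.22), before adjustment over all genes, and is widest for Ripk3 and Fas.

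The balance between members was looked at as ratios of RPKM within a library, chosen after the single values were seen and described with no test. Of the 28 ratios that 8 genes allow, 6 separated the groups with no overlap. The same held for 15.7% of the 2016 ratios that the 64 tested cell death genes allow. The ratios share genes, and 3 of the 6 involved Casp8. Cflar over Casp8 was 1.86, 1.77 and 1.88 in the β-gal libraries and 1.60, 1.66 and 1.69 in the Aloxe3 libraries, with means of 1.84 ± 0.059 and 1.65 ± 0.049 (SD, n = 3 per group). Bid over Casp8 was 1.73 ± 0.064 with β-gal and 1.51 ± 0.083 with Aloxe3, and Mcl1 over Casp8 was 5.91 ± 0.15 and 5.34 ± 0.19 (SD, n = 3 per group). The others that did not overlap were Cflar over Ripk1, Bid over Ripk1 and Bcl2l1 over Mcl1. In Bcl2l1 over Mcl1 the values were 1.32, 1.31 and 1.32 with β-gal and 1.32, 1.38 and 1.46 with Aloxe3, and the nearest libraries were equal to 3 significant digits.

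**Figure D3:**
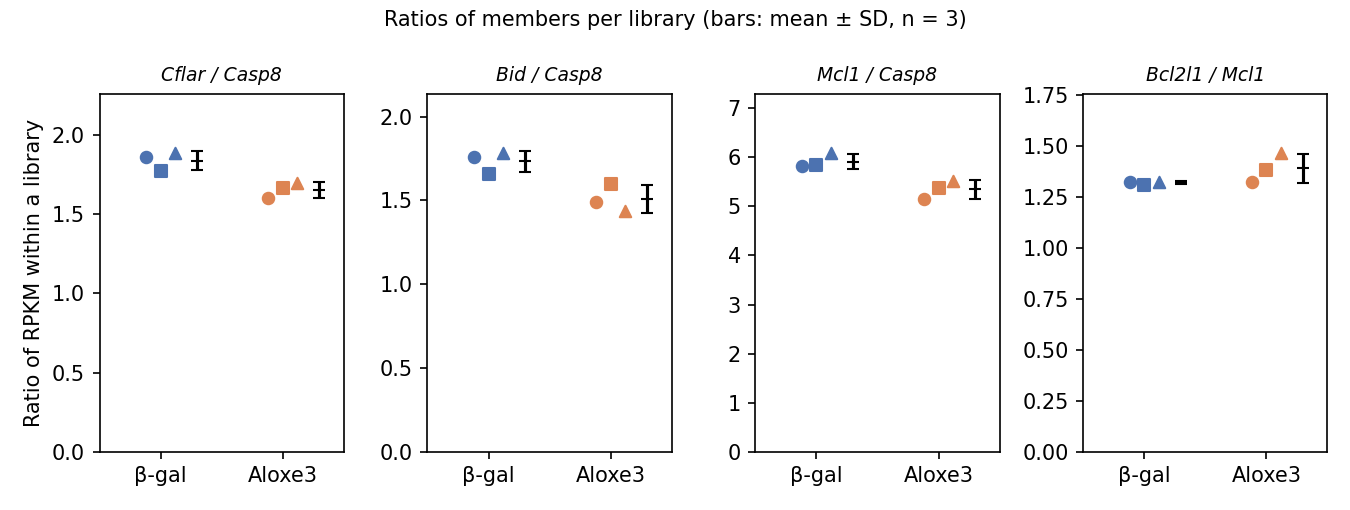
Ratio of RPKM within each library for 4 pairs of members, with axes from 0, in β-gal (blue) and Aloxe3 (orange) libraries. Bars give the mean ± SD (n = 3). The 3 ratios over Casp8 are lower in every Aloxe3 library, while for Bcl2l1 over Mcl1 the groups meet at 1.32.

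Other genes of the same pathways were taken from a list of 64, set by role, of which all were in the table and 56 were tested. Of these 56, 0 passed the threshold in either direction (limma), and 0 passed with voom. An unadjusted p under 0.05 was reached by 4 of the 56, beside 12.7% of all tested genes. In 9 of the 56 the groups did not overlap, 6 higher and 3 lower with Aloxe3, beside 19.9% of all tested genes. The median log2 fold change was -0.0083, with 26 genes positive and 30 negative.

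Among ligands and receptors, Fasl, the ligand of Fas, was listed with at most 1 read per library and was not tested. Tnf, the ligand of the TNF receptors, had 1.53, 1.17 and 1.44 RPKM in β-gal libraries and 1.67, 1.32 and 1.94 RPKM in Aloxe3 libraries (log2 fold change 0.15, 0.1 SE, limma adjusted p = 0.572). This value was 0.24 when Aloxe3 replicate 8 was left out, 0.07 when Aloxe3 replicate 9 was, and 0.08 when β-gal replicate 2 was. Of the 6 receptors tested, Tnfrsf12a, the TWEAK receptor, was the most abundant at 311 ± 9.1 RPKM in β-gal libraries and 297 ± 5.7 RPKM in Aloxe3 libraries (SD, n = 3 per group). Tnfrsf1a, the main TNF receptor with a death domain, was at 42.6 RPKM in β-gal libraries and Tnfrsf10b, the mouse TRAIL receptor, at 12.6 RPKM, both above the 2.06 RPKM of Fas. The 6 receptors ranged in log2 fold change from -0.07 to 0.07. In 1 of the 6, Tnfrsf1b, the groups did not overlap (19.9 ± 0.42 and 19.1 ± 0.24 RPKM, SD, n = 3 per group), beside 19.9% of all tested genes.

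Of the 13 adaptors and ubiquitin enzymes tested, 2 stood at an unadjusted p under 0.05, beside 12.7% of all tested genes. Both encode inhibitors of apoptosis proteins, and they lay on opposite sides. Xiap, which encodes a direct caspase inhibitor, had 8.41, 8.14 and 8.68 RPKM in β-gal libraries and 9.53, 9.04 and 9.26 RPKM in Aloxe3 libraries. Its log2 fold change was 0.13 (0.041 SE, limma adjusted p = 0.291). Birc3, which encodes cIAP2, a ubiquitin ligase for RIPK1, had 8.44, 8.45 and 8.38 RPKM in β-gal libraries and 7.86, 7.84 and 7.82 RPKM in Aloxe3 libraries, a log2 fold change of -0.09 (0.035 SE, limma adjusted p = 0.338). The groups stood apart in these 2 of the 13 genes, beside 19.9% of all tested genes. Fadd, the adaptor between Fas and caspase-8, was at 6.70 ± 0.14 and 6.56 ± 0.081 RPKM (SD, n = 3 per group).

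The necroptosis effector Mlkl was present at 23.3, 23.5 and 23.6 RPKM in β-gal libraries and 23.6, 23.4 and 25.5 RPKM in Aloxe3 libraries, well above the level of Ripk3. Of the 5 necroptosis partners, Pgam5, a mitochondrial phosphatase, had the smallest p, with 8.86 ± 0.17 RPKM in β-gal libraries and 7.98 ± 0.83 RPKM in Aloxe3 libraries (SD, n = 3 per group; adjusted p = 0.429 from limma).

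In the mitochondrial arm, Bax was the most abundant gene at 185 ± 7.8 and 174 ± 3.5 RPKM (SD, n = 3 per group), and its log2 fold change came to -0.09 (0.041 SE, limma adjusted p = 0.433). The related pore gene Bak1 was at 41.7 RPKM in β-gal libraries. Among survival genes, Bcl2 was low, with 0.36, 0.50 and 0.54 RPKM in β-gal libraries and 0.59, 0.55 and 0.57 RPKM in Aloxe3 libraries, and its groups did not overlap. Bcl2a1a was measured with 6 to 21 reads per library (log2 fold change 0.29, SE 0.14), and since it is nearly identical to Bcl2a1b and Bcl2a1d, its values are uncertain. Those copies, both below the minimum, went the other way, with groups that overlapped. Their β-gal and Aloxe3 means were 0.332 and 0.211 RPKM for Bcl2a1b, and 0.305 and 0.207 RPKM for Bcl2a1d. Both Bcl2a1a (group means of 0.367 and 0.686 RPKM) and Bcl2 (0.468 and 0.569 RPKM) reached the minimum mean of 0.5 RPKM only through the Aloxe3 group, so a higher level there was a condition of their being tested, and their values are given as a description. On scales that shrink low levels less, the log2 fold change of Bcl2a1a was 0.71 (pseudocount 0.1) and 0.84 (voom), and that of Bcl2 was 0.25 and 0.31, as against 0.10 with a pseudocount of 1. Of the 8 BH3-only genes tested beside Bid, Bad had 8.09, 8.13 and 8.96 RPKM in β-gal libraries and 7.77, 7.54 and 7.67 RPKM in Aloxe3 libraries, with a log2 fold change of -0.12 (SE 0.047, unadjusted p = 0.0416, adjusted p = 0.373 from limma). Without β-gal replicate 3, the highest library, it was -0.07. The p53-induced Bbc3 (PUMA) was at 15.7 RPKM in both groups.

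Of the 9 other caspases and substrates tested, 0 passed the threshold, with 7 positive and 2 negative log2 fold changes and a median of 0.03. Casp6, which encodes an effector caspase, had 15.3, 15.8 and 16.5 RPKM in β-gal libraries and 15.8, 15.4 and 13.9 RPKM in Aloxe3 libraries, and its groups overlapped. Of the 7 tested genes of the apoptosome and the released mitochondrial proteins, 2 did not overlap between the groups, beside 19.9% of all tested genes. These were Aifm1 (17.3 ± 0.2 and 18.1 ± 0.43 RPKM) and Apaf1 (4.80 ± 0.067 and 4.95 ± 0.05 RPKM, SD, n = 3 per group). Birc3, Tnfrsf1b and Bcl2 were named after their values were seen, and Tnfrsf1a, Tnfrsf10b, Fadd, Bak1 and Bbc3 for their roles.

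**Figure D4:**
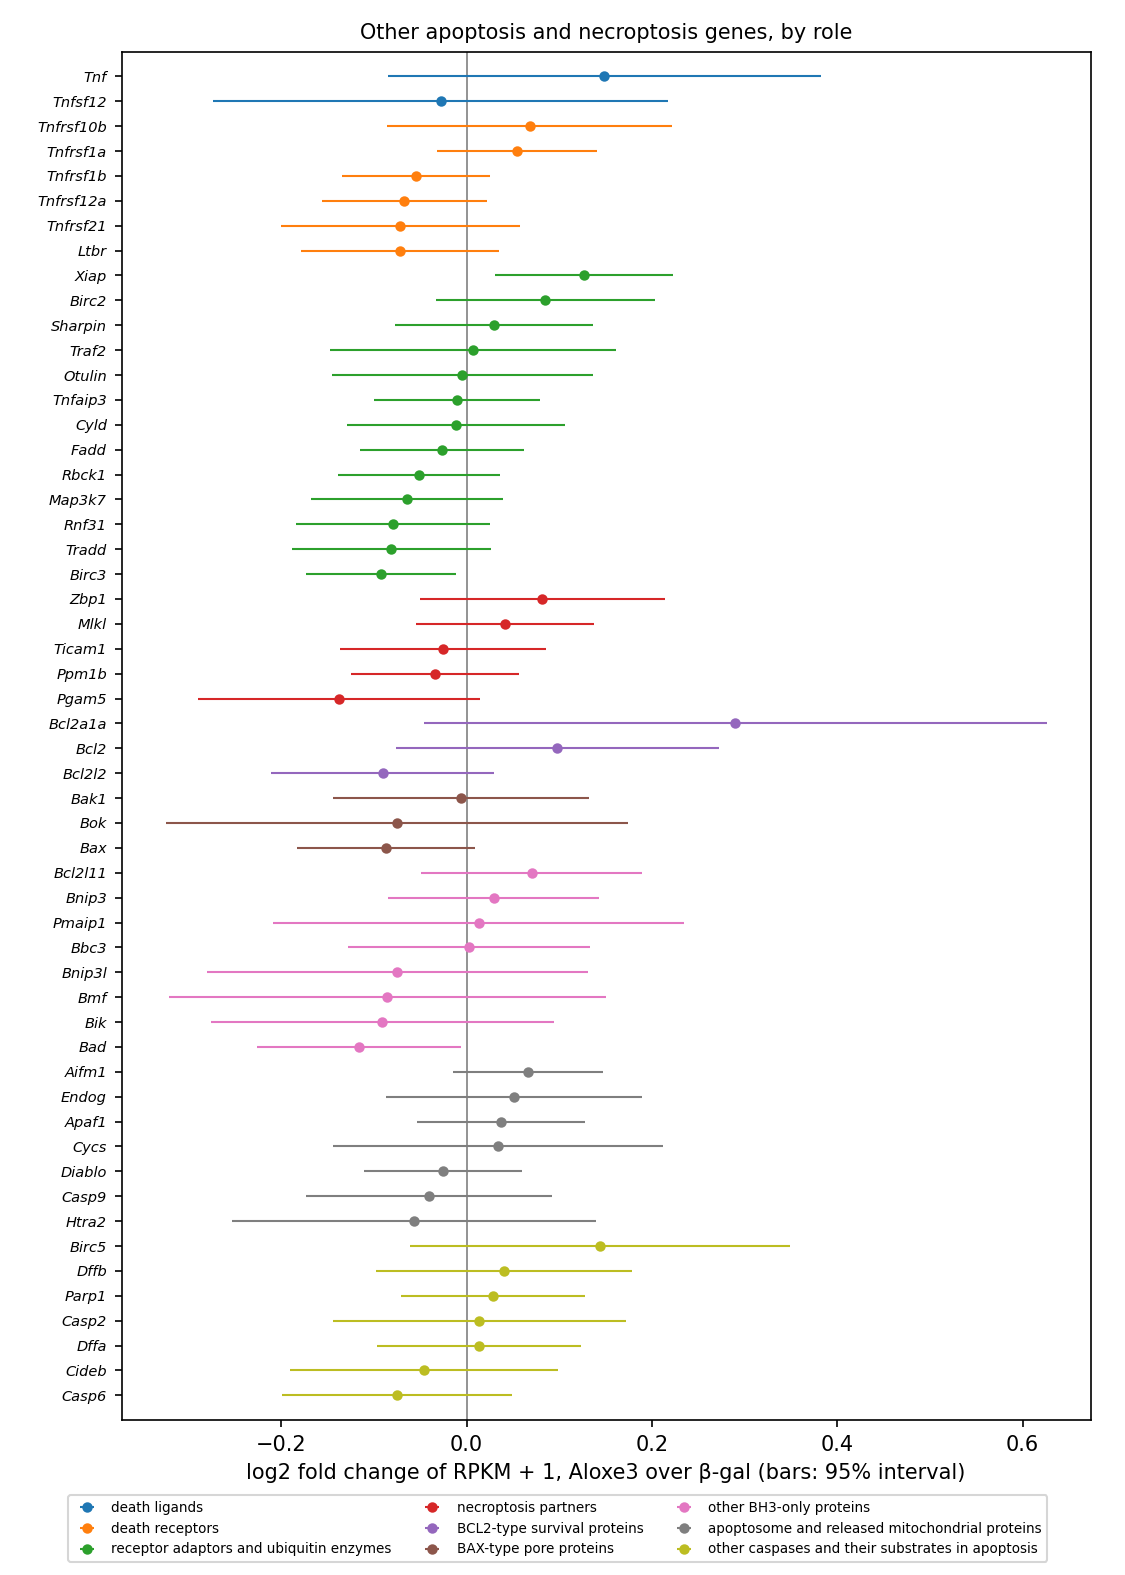
Log2 fold change of RPKM + 1, Aloxe3 over β-gal, of tested genes of the wider list by role, with 95% intervals from limma (3 libraries per group). Most intervals hold 0, and those of Xiap, Birc3 and Bad do not, before adjustment over all genes.

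The gene of the wider list with the profile nearest to each member was found by the root mean square difference of centered log2(RPKM + 1) values over the 6 libraries, among 56 candidates. It was Aifm1 for Casp8 (0.0361), Tnfaip3 for Cflar (0.0196), Apaf1 for Ripk1 (0.02), Mlkl for Bcl2l1 (0.0206), Diablo for Mcl1 (0.0289), Casp6 for Bid (0.0361), Pmaip1 for Ripk3 (0.0516) and Traf2 for Fas (0.0669). For Cflar and Mcl1 this distance was no smaller than the spread of the member itself over the libraries (0.0179 and 0.0157). For Ripk1 it was close to that spread (0.0243). Each distance is the smallest among 56 candidates over 6 libraries, so no member was shown to have a particular neighbor. Libraries also shared their scaling, and no test was made of these distances.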

How the data were processed

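RNA of 6 libraries (poly-A selected, single reads of 50 bases) was analysed, 3 per group. Per the labels and the study's methods, the authors aligned reads with STAR 2.0.4b (GRCm38.p2 in the processing notes) and counted unique unambiguous reads per gene with featureCounts 1.4.5. The authors deposited RPKM values, and how RPKM was made from counts is not given in the sources used here. Symbols and positions were taken from GENCODE M21 (GRCm38), which matched 40340 of 41388 identifiers, and promoters from RefSeq (GRCm38.p6), with all 8 genes matched. RPKM values fall in whole-number steps, from which library sizes of 25521908 to 32431318 reads and whole reads per gene (within 0.01) were derived. For Fas, Ripk1, Ripk3 and Mcl1 the reads use the smallest length giving whole reads. At this depth 1 read on 1 kb is worth 0.0308 to 0.0392 RPKM. Replicates differed by more than sampling noise (chi-square per degree of freedom 3.47 to 9.82, highest for pairs with Aloxe3 replicate 9), and all were kept.

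Tests covered genes averaging 0.5 RPKM or more and were run with limma 3.58.1 in R 4.3.3 (eBayes with trend) on log2(RPKM + 1), two-sided, over all genes. This scale understates changes of low genes. For 3 against 3 libraries the smallest two-sided p of an exact permutation test is 0.1. The members and lists were chosen with earlier results of these data known. Named genes are all members, the gene with the smallest p in each role group, those past the threshold, and the nearest profile to each member. Some genes of the wider list enter the counts but are not reported here by name. Scripts were tested on simulated data. Alternatives were a pseudocount of 0.1, no filter, a filter at 5 RPKM, median and quantile scaling, eBayes without trend, voom, and each library left out. No batch was fitted, as the study describes a single sequencing run.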

Additional observations from a re-analysis of the deposited data

How the results depend on the processing

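Under each of the 13 alternatives 0 of the members and 0 genes of the wider list that were tested in it were past the threshold. The filter at 5 RPKM left 6 members, without Fas and Ripk3, and 43 genes of the wider list, and the other alternatives tested all 8 members. There were 0 or 1 members and 1 to 6 genes of the wider list at an unadjusted p under 0.05. Of the members, 6 of 8 kept their direction under each alternative that gave them a value, which was 12 of 13 for Fas and 13 for the other 5. Mcl1 had a log2 fold change of 0.0222 with quantile normalization, and from -0.0186 to 0.0025 with 1 library left out. Ripk3 ranged from -0.0989 to 0.0416 with 1 library left out. Tnfrsf1a, Tnfrsf10b, Fadd, Bak1 and Bbc3 were not followed under the alternatives. Of the 18 other named genes of the wider list that were, 15 kept their direction under the alternatives that gave them a value. These include Bcl2a1a and Bcl2, which passed the filter only through the Aloxe3 group, and Bcl2a1a had no value without Aloxe3 replicate 7 or 8. With 1 library left out, Pgam5 ranged from -0.2111 to -0.0872, Bax from -0.1174 to -0.0573, Bcl2 from 0.0436 to 0.1352, Bcl2a1a from 0.2142 to 0.4313 and Mlkl from 0.0042 to 0.0634. With a pseudocount of 0.1 and with voom, the log2 fold change was 0.7097 and 0.8417 for Bcl2a1a, 0.2509 and 0.3064 for Bcl2, 0.2304 and 0.2341 for Tnf, and -0.0627 and -0.0744 for Ripk3, none of them past the threshold. Traf2 had -0.0057 with median scaling, -0.0125 with quantile normalization and -0.0396 to 0.058 with 1 library left out. Pmaip1 had -0.0261 with quantile normalization, -0.0018 with voom and -0.05 to 0.1157 with 1 library left out. Tnfaip3 ranged from -0.0387 to 0.0113 with 1 library left out. The count over all genes was 7 with no filter on low values, 173 with voom and 6 to 19 with 1 library left out, as against 50. The cause was not tested. Aloxe3 stayed past the threshold throughout. No scaling moved the median of all genes by over 0.1. No paired analysis was run, because the groups share no replicate numbers and the labels name no shared preparation. The endothelial sums had the same order in both groups, while those of the other marker lists did not. They were 37.6, 32.8 and 34.0 RPKM in β-gal replicates 1, 2 and 3, and 37.0, 32.5 and 33.8 RPKM in Aloxe3 replicates 7, 8 and 9. Whether libraries were matched in culture was not tested, so the unpaired spread may include differences between preparations. Fas and Ripk3 rest on at most 160 reads per library, and the width of their intervals limits what could be detected. With one group left at 2 libraries, the spread is pooled over both groups.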

Other observations

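Of the 64 genes of the wider list, 8 were below the minimum mean of 0.5 RPKM and were not tested: Fasl, Tnfsf10, Lta, Tnfaip8, Bcl2l10, Bcl2a1b, Bcl2a1d and Hrk. Lta, which encodes lymphotoxin alpha, had 0 reads in each β-gal library and at most 4 reads in an Aloxe3 library, too few for a fold change. Tnfaip8 had 0.333, 0.278 and 0.321 RPKM in the β-gal libraries and 0.387, 0.363 and 0.377 RPKM in the Aloxe3 libraries, from 93 to 114 reads per library. Both were named after their values were seen.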
